A study of Mus musculus with 8 samples.

Results

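A set of 10 genes of protein synthesis and of the nucleolus was followed through 8 maps of open chromatin from mouse BV2 microglial cells. They were the noncoding snoRNA host genes Gas5, Snhg1 and Snhg12, the elongation factor genes Eef1a1, Eef1b2, Eef1g and Eef2, and the nucleolar protein genes Npm1, Ncl and Nop56. These 10 of 49943 annotated genes were selected on the readout itself: accessible regions near Gas5 and Eef1b2 were known to be missing from every hypoxic list, and the other members belong to the same functional groups. Presence and rank by oxygen and by culture therefore chose the members, and their values by oxygen and culture are given below as a description, with no test. A region counted as near a gene when it lay within 10 kb of the gene body in the GRCm38 annotation, and 27 of 40784 regions did so, with at least 1 for each of the 10 genes. Of the members, 7 hold annotated snoRNAs in their bodies: 8 each in Gas5 and Snhg1, 5 in Nop56, 4 in Snhg12, 2 each in Eef1b2 and Ncl, and 1 in Eef2. Eef1a1, Eef1g and Npm1 hold none, so the shared name of snoRNA host does not cover them.

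The assay was ATAC-seq, a method that maps open chromatin by the insertions of the Tn5 transposase. BV2, an immortalised mouse microglial line, was grown alone (monoculture) or on a layer of the mouse glioma line GL261 (co-culture), and each culture was kept for 16 h at 21% oxygen (normoxia) or below 0.1% oxygen (hypoxia). The 4 groups comprised 2 biological replicates apiece, with 1 peak list for every library. All cells, the controls included, were formaldehyde-fixed (the hypoxic ones before their return to air) and sorted, per the labels' protocol for CD45 or GFP, with the gate of each sample not given. BV2 is a cell line, not primary microglia.

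The elongation factors work in a cycle on the ribosome. Eef1a1 encodes the factor that brings aminoacyl-tRNA to the ribosome, Eef1b2 and Eef1g encode subunits of the complex that recharges it with GTP, and Eef2 encodes the factor that moves the ribosome along the mRNA. Host genes carry snoRNAs in their introns, which guide the modification of ribosomal RNA. Nop56 is a core protein of box C/D snoRNA particles, and Ncl (nucleolin) and Npm1 (nucleophosmin) are abundant nucleolar proteins with roles in ribosome assembly. Many of these transcripts begin with a terminal oligopyrimidine (TOP) tract, a run of pyrimidines after a first C, through which growth signals control their translation.

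The promoter sequences show what the start regions hold. RefSeq windows (GRCm38.p6) matched 8 of the 10 members, with 2 starts for Gas5; Eef1g and Npm1 had no entry. The windows below run from 100 bases before to 20 bases from the annotated start, 5′ to 3′ on the gene's strand, and are shown for the genes with a region seen in normoxia only (Gas5, Eef1b2, Eef1a1), for Snhg12, whose start was called in 1 group only, and for Ncl, whose rank was higher in hypoxia. Capitals mark TOP tracts on the gene's strand and matches on either strand to 7 motifs. These were GGGCGG, known as the GC box, and CCGGAAG, the binding motif of ETS factors. The core of the hypoxia response element was searched as ACGTG and, in its other common form, as GCGTG. The others were the E-box, CACGTG, the TATA box, TATAAA, and the YY1 motif, searched as GCCATNTT.
Gas5 outer start: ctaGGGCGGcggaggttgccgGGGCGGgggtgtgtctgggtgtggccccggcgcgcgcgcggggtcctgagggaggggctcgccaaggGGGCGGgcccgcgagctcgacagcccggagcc
Gas5 inner start: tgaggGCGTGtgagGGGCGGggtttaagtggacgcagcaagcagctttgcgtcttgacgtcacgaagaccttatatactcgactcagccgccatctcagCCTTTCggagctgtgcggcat
Eef1b2: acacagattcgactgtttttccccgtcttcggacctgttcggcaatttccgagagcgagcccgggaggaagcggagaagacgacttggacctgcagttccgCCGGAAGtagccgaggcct
Eef1a1: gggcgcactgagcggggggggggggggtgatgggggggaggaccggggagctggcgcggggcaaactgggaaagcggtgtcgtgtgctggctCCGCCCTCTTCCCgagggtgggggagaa
Snhg12: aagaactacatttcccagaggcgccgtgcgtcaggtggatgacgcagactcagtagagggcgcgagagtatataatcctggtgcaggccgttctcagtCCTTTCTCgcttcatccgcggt
Ncl: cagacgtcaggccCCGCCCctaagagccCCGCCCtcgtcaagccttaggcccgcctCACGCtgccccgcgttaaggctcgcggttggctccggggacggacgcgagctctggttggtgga
The 2 Gas5 windows lie at chr1:161034501-161034620 and chr1:161035066-161035185, Eef1b2 at chr1:63176731-63176850 and Snhg12 at chr4:132308578-132308697, all on the plus strand. The Eef1a1 window lies at chr9:78481705-78481824 and that of Ncl at chr1:86359436-86359555, both on the minus strand. The inner Gas5 start, Snhg12 and Eef1a1 had a TOP tract within 10 bases of the start, as did 30.7% of 32851 promoters. The inner Gas5 start carried it from 1 base before the annotated start. In the whole 300-base windows, GGGCGG was found in 6 of the 9 member windows and in 35.7% of all promoters, and GCGTG in 4 of 9 beside 32.4%. ACGTG occurred for Eef2 and Snhg1 (19.6% of all), CACGTG for Eef2 alone of the members (7.15% of all), where it contains both ACGTG matches, TATAAA for Eef2 and Snhg1 (13.6%), and CCGGAAG and GCCATNTT for Eef1b2 alone (8.86% and 6.05%). The GC content of the 9 windows ran from 53% to 73.7%, against a median of 52.7% over all promoters. These are matches of letters and not measured binding sites.

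Depth differed between the libraries. The lists held 9910 to 21826 peaks in normoxia and 21633 to 29658 in hypoxia, and the background coverage, the commonest fragment count per position solved from the lists, was 0.758 to 1.38 in normoxia and 1.17 to 1.45 in hypoxia. The lowest −log10 q of each list lay just above 2, so a missing peak is one that did not pass that threshold, not closed chromatin. Every fold, p-value and rank below comes from the authors' peak calls and holds within 1 list. Ptprc, which encodes CD45, and Cx3cr1 had a peak within 1 kb of a gene end in all 8 libraries, and 3 to 10 of 16 microglial and macrophage markers did so per library. Of these 16, Aif1, Csf1r, Itgam, P2ry12 and C1qa had no such peak in any library. Of 15 glioma and glial markers, 0 had such a peak in each monoculture library and 2 to 3 in each co-culture library (Sox2, Nes, Cdh2, Slc1a3 or S100b), while Gfap, Olig2, Sox10 and Pdgfra had none in any library.

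Of the 10 members, 3 had a region that was called in all 4 normoxic libraries and in none of the 4 hypoxic ones: Gas5, Eef1b2 and Eef1a1. The rule that chose the members named Gas5 and Eef1b2 for this pattern. Over all 25997 genes with a region within 10 kb, 0.104% had such a loss with hypoxia. The reverse pattern was found at 1 member, Eef1g, beside 3.87% of all genes. Because the rule used this contrast, nothing is read from the members' counts. In all 3 cases the lost region was not the promoter but a stretch beyond the 3′ end of the gene, and the start of the same gene was called in all 4 hypoxic libraries for Gas5 and Eef1a1 and in 3 for Eef1b2.

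Gas5 (growth arrest specific 5), a noncoding RNA gene named for its rise in growth-arrested cells, lies at chr1:161034601-161038539 on the plus strand. Its lost region starts 681 bp and stops 1975 bp past the annotated gene end. Within its own list, ranked by −log10 p, the Gas5 downstream peak stood at percentile 64.9 and 90.9 in the normoxic monocultures (replicates 1 and 2) and at 95.1 and 74.6 in the normoxic co-cultures. All 4 normoxic libraries thus placed it in the upper part of the list, and no hypoxic list held a peak there. The fold enrichments in the authors' lists were 4.37, 4.67, 5.23 and 3.80 in the same order. Its summit held 44, 75, 141 and 99 fragments over a solved local background of 9.29, 15.3, 26.2 and 25.3. The summits lay close together, 1291 to 1420 bp past the gene end. In the hypoxic libraries the nearest peak was 3805 to 3992 bp away, and that peak was the one at the Gas5 start.

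Eef1b2 lies at chr1:63176831-63180486 on the plus strand. Its lost region, chr1:63180863-63181348, lies 377 to 862 bp past the gene end and overlaps no annotated gene, and it also falls past the end of Gpr1. The downstream peak stood at percentile 47.6 and 58.6 in the normoxic monocultures and at 54.2 and 78.4 in the normoxic co-cultures. These are middle ranks, lower than those of the Gas5 region in 3 of the 4 libraries. Folds were 5.51, 5.51, 4.78 and 6.67, with 23, 26, 40 and 60 fragments at the summit. The summits fell within 659 to 714 bp past the gene end. The start region of Eef1b2, shared with Ndufs1, a respiratory complex I gene, was called in 6 of 8 libraries and was missing from normoxic monoculture replicate 2 and hypoxic monoculture replicate 1. In that last library the nearest peak to the lost region was 65559 bp away, and in the other hypoxic libraries 3754 to 3756 bp.

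Eef1a1 lies at chr9:78478453-78481724 on the minus strand. Its lost region, chr9:78476150-78477678, lies 775 to 2303 bp past the gene end and likewise past the end of Mto1, which encodes a mitochondrial tRNA-modifying enzyme. The downstream peak stood at percentile 22.8 and 63.1 in the normoxic monocultures and at 80.0 and 41.0 in the normoxic co-cultures. Its rank thus varied more between libraries than that of the other 2 lost regions. Folds were 3.55, 3.94, 3.89 and 2.92, and the summits held 25, 44, 95 and 65 fragments over local backgrounds of 6.32, 10.4, 23.7 and 21.6. The summits lay 1278 to 1541 bp past the gene end, and the nearest hypoxic peaks, all at the Eef1a1 start, were 3913 to 4016 bp away.

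**Figure D1:**
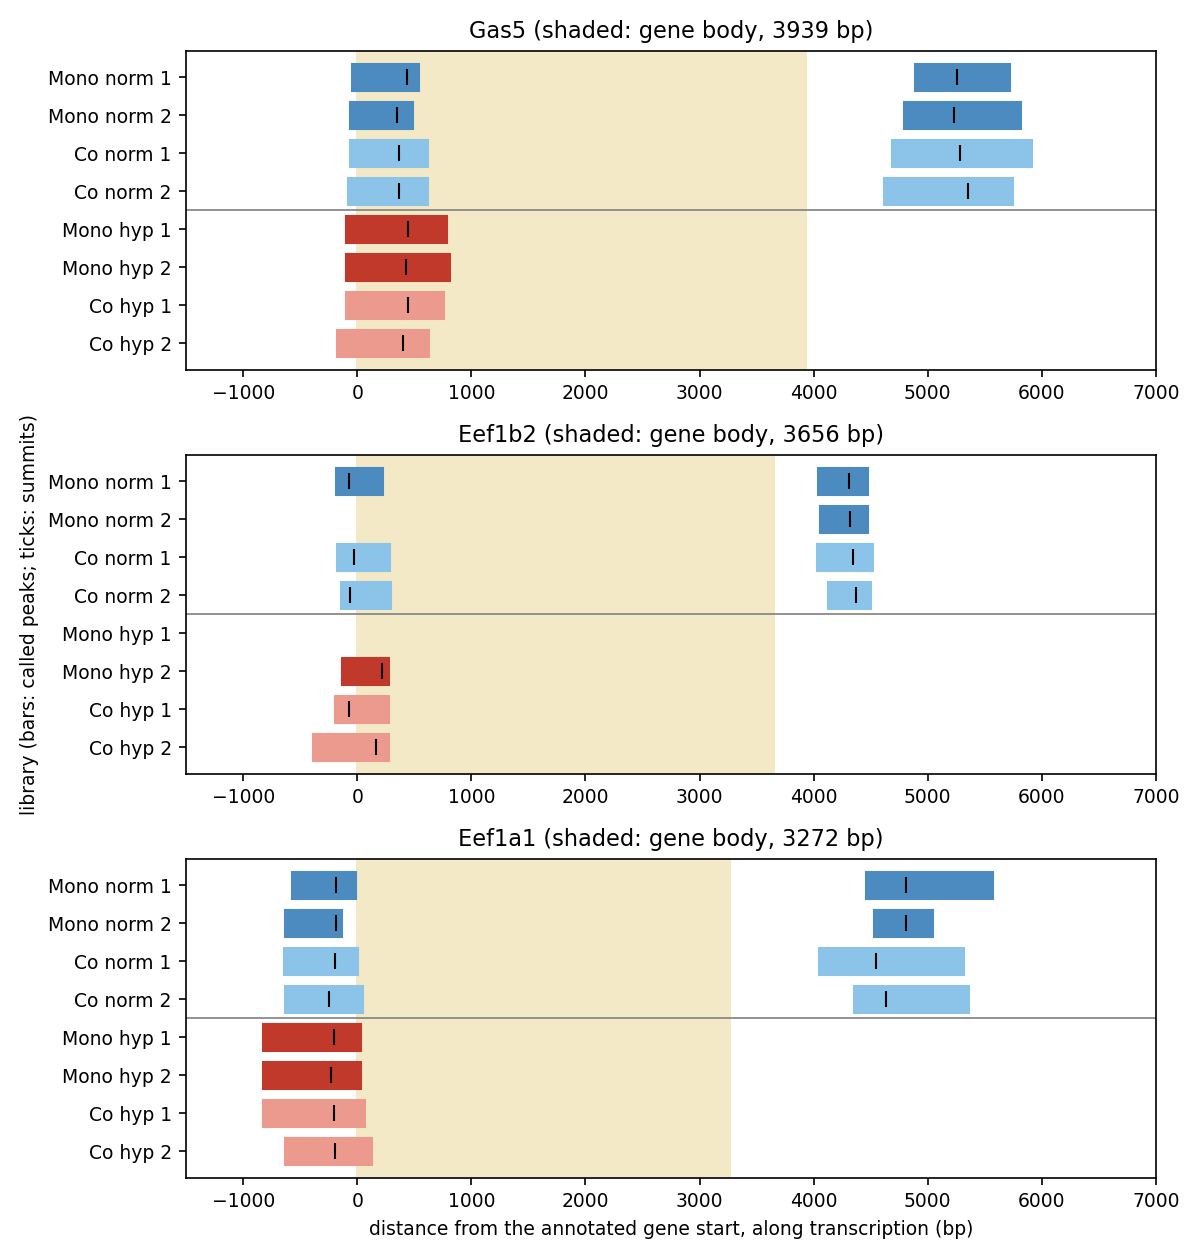
Called peaks (bars) and summits (ticks) in each of the 8 libraries along Gas5, Eef1b2 and Eef1a1, plotted by distance in bp from the annotated gene start in the direction of transcription, with the gene body shaded. The downstream peak of each gene is present in the 4 normoxic libraries (blue) and in none of the 4 hypoxic ones (red), while the Gas5 and Eef1a1 start peaks are present in all 8.

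The member losses did not all hold when every list was reduced to its 9910 highest-ranked peaks, the number in the shortest list. The Gas5 downstream region was then called in 4 normoxic and 0 hypoxic libraries, the Eef1b2 region in 3 and 0, and the Eef1a1 region in 2 and 0. With peaks required to cover at least 50% of the region, Gas5 and Eef1b2 met the rule and Eef1a1 was called in 3 normoxic libraries.

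The same presence pattern was counted over all regions. Of all 40784 regions, 8 (0.0196%) were called in all 4 normoxic and no hypoxic library, against 849 (2.08%) in all 4 hypoxic and no normoxic library. Both counts depended on the lists. With lists of equal number, 178 of 19790 regions (0.899%) were lost and 212 (1.07%) were gained. Without normoxic monoculture replicate 2 the number lost rose from 8 to 50, and without any other single library it was 9 to 20. The number gained rose to 1815 without hypoxic co-culture replicate 2, 1402 without normoxic co-culture replicate 1 and 1276 without normoxic co-culture replicate 2, and was 899 to 1164 without any other single library. Besides the 3 member regions, the best ranked lay near Tmem100 (percentiles 71.9 to 82.5), within Rbm19 (38.0 to 68.4) and within Gm39256 (26.1 to 72.5). The other 2 lay past the end of Hnrnpf, which encodes an RNA-binding protein of splicing (17.7 to 41.0), and at the start of Tsfm, which encodes a mitochondrial elongation factor (9.81 to 33.8). These 2 are named after their values were seen.

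The position past the gene end was then examined across the genome, a comparison chosen after the member regions had been located. A downstream region was one in the 3 kb past the end of a gene of known strand and not within 1 kb of an annotated start. Of 1728 downstream regions, 4 (0.231%) were lost with hypoxia (Gas5, Eef1b2, Eef1a1 and Hnrnpf) and 38 (2.2%) were gained. Of 9477 regions within 1 kb of an annotated start, 1 (0.0106%) was lost and 66 (0.696%) were gained. Of the 4 lost downstream regions, 3 belong to members, and the rule named Gas5 and Eef1b2 for this very loss. With the 27 member regions left out, 1 of 1722 downstream regions (0.0581%), 5 of 40757 regions in all (0.0123%) and 1 of 9464 regions at starts (0.0106%) were lost. With lists of equal number, 7 of 749 downstream regions (0.935%) were lost, close to the 0.899% of all regions, and 4 (0.534%) were gained, so that losses then outnumbered gains.

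The downstream regions of the other members and of other host genes were then listed. Of the members, 5 had a downstream region that was not at another gene's start, and each of the 5 was called in normoxic libraries only: Gas5, Eef1b2 and Eef1a1 in 4, and Snhg12 and Nop56 in 1, both in normoxic co-culture replicate 1. The last 2 were low-ranked peaks, at percentile 6.27 for Snhg12 and 14.1 for Nop56. Of 19 other snoRNA host genes, 4 had a downstream region and these too were called in normoxia only: Snhg8 in 3 libraries, Zfas1 in 2, and Taf1d and Rack1 in 1 each. Over all 1728 downstream regions, 10.5% were called in at least 1 normoxic and no hypoxic library, and 36.8% in at least 1 hypoxic and no normoxic library. Downstream regions of the other lists were mostly called on both sides or in hypoxia alone: 2 of 6 for the initiation factors were normoxic only (Eif4a2 and Eif3g), and 0 of 5 for the snoRNP and nucleolar proteins.

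Host genes were next taken from the annotation rather than from a list, as genes whose body holds an annotated snoRNA on either strand, so a snoRNA antisense to the gene also counts. Of 112 genes of known strand and at most 20 kb that hold an annotated snoRNA, 20 downstream regions were found, and 14 of the 20 (70%) were called in normoxic libraries only, against 3 (15%) in hypoxic libraries only and 3 on both sides (Atp5b, Rpl13a and Tomm20). Without the members it was 10 of 16 (62.5%), and over all genes of at most 20 kb it was 127 of 1145 (11.1%). The 10 belonged to Rps12, Rpl13, Rpl27a and Rpsa, which encode ribosomal proteins, to Snhg8, Zfas1, Taf1d, Rack1 and Eif4a2, and to Ppan, which encodes a ribosome biogenesis factor and shares its region with Eif3g. Rpsa was called in 3 normoxic libraries at percentiles of 29.9 to 40.7. Without a length limit on the genes the count was 14 of 35 (40%). Many of these calls rest on 1 library: without normoxic co-culture replicate 1 the count was 7 of 13 (53.8%), beside 7.55% of all downstream regions. With lists of equal number it was 6 of 8 (75%), beside 23.4% of all downstream regions. The counts without the length limit, without that replicate and with equal lists include members. Among these are Gas5 and Eef1b2, which the rule named for this loss. The grouping by snoRNA and the length limit were chosen after the values were seen and were not tested.

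**Figure D2:**
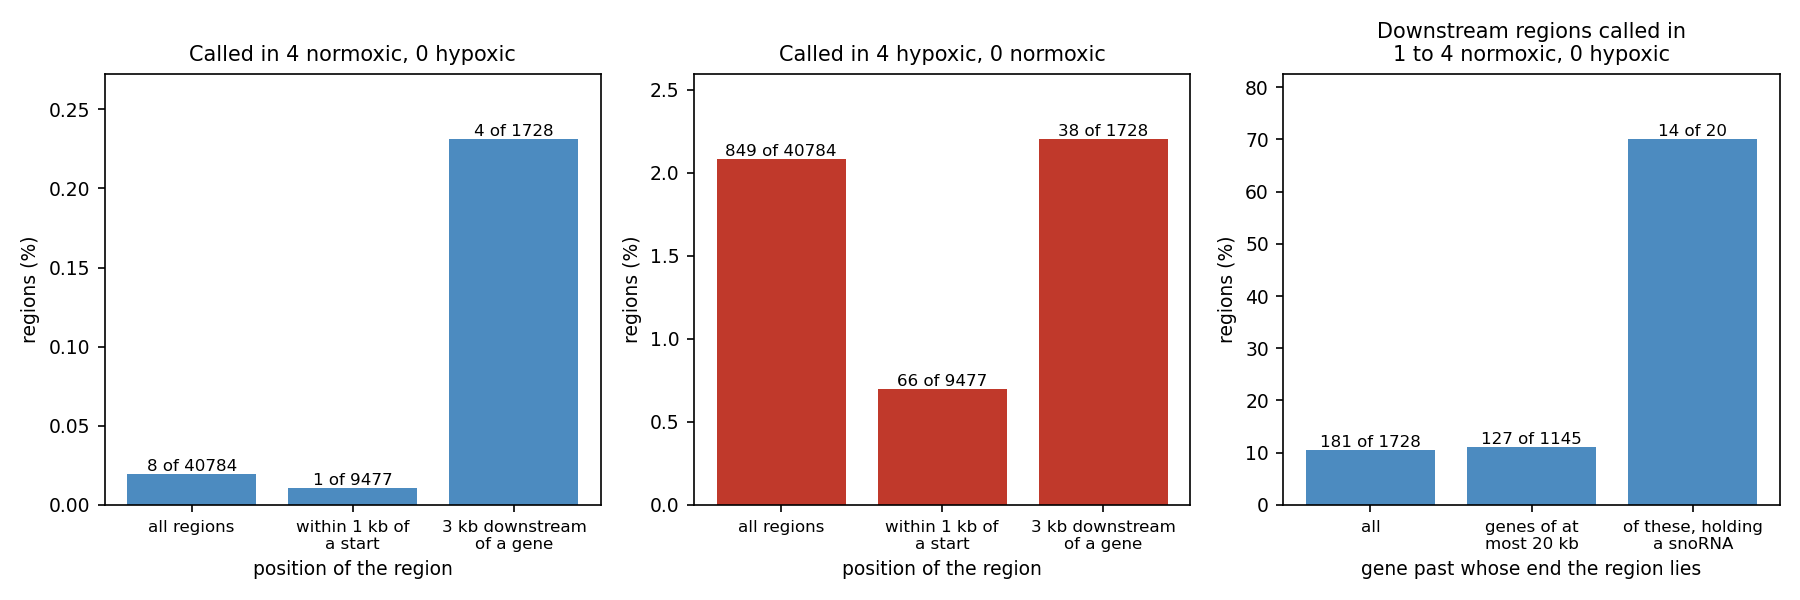
Share of regions (%) called in all 4 normoxic and no hypoxic library (left) and the reverse (middle) among all regions, regions within 1 kb of an annotated start and regions in the 3 kb past a gene end, with counts above the bars. The right panel gives the share of downstream regions called in normoxic libraries only. This was 14 of 20 for short genes that hold a snoRNA, members included (10 of 16 without them), and 181 of 1728 overall. Of the 4 downstream losses, 3 are member regions.

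The starts of Gas5, Eef1a1, Snhg1 and Ncl were called in every library of both oxygen levels, while those of Eef2 and Snhg12 were called in 2 hypoxic and 0 normoxic libraries each. Of the 27 member regions, 6 were called in all 8 libraries: the starts of Gas5, Eef1a1, Snhg1 and Ncl, the lower end of Eef1g, and a region at the end of Eef2 that is also the start of Dapk3. Of all regions, 15.6% were called in all 8. Since the lists differ in length, these were ranked among the 6375 regions called in all 8 libraries, here called the common percentile.

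The Gas5 start peak stood at a common percentile of 62.3 and 75.3 in normoxic monoculture, 77.6 and 90.8 in normoxic co-culture, 81.1 and 89.4 in hypoxic monoculture and 94.4 and 92.1 in hypoxic co-culture. Hypoxic values exceeded the normoxic ones within each culture, and the 2 oxygen levels overlapped over both cultures together. On average the hypoxic common percentile was 12.7 points higher, and 7.98 points without normoxic monoculture replicate 1. Its summits lay 344 to 445 bp from the outer start, between the 2 annotated starts. The Gas5 start region also overlaps Zbtb37.

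The Eef1a1 start stood at 65.7 and 7.22 in normoxic monoculture, 62.0 and 61.2 in normoxic co-culture, 72.5 and 74.6 in hypoxic monoculture and 84.8 and 74.8 in hypoxic co-culture. All 4 hypoxic values lay above all 4 normoxic ones, by 27.7 points on average. Normoxic monoculture replicate 2 was far below the others, and without it the difference was 13.7 points. The Ncl start, whose region also overlaps C130036L24Rik, stood at 69.7 and 79.2 in normoxic monoculture and 65.2 and 84.1 in normoxic co-culture. In hypoxia it stood at 94.2 and 84.8 in monoculture and at 91.0 and 96.5 in co-culture. Again no hypoxic value reached down to a normoxic one, with a mean difference of 17.1 points and a gap of under 1 point between 84.1 and 84.8.

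These 2 of 6 member regions were the ones with all hypoxic ranks above the normoxic ranks, and 0 of 6 had all below. Among all 6375 regions the shares were 5.21% above and 6.89% below. The mean difference between hypoxia and normoxia was 8.75 points for Eef1g, 3.48 for the Eef2 and Dapk3 region and 1.87 for the Snhg1 start, whose groups overlapped. None of these 3 differences kept its sign with every library left out in turn. Without normoxic monoculture replicate 2 it was −0.807 for Eef1g and −8.88 for Snhg1. For the Eef2 and Dapk3 region it was −4.10 without normoxic monoculture replicate 1, −4.00 without hypoxic co-culture replicate 1 and −2.33 without hypoxic co-culture replicate 2, and for Snhg1 −7.69 without the last. The median over the 6 was 10.7 points and over all 6375 regions −0.163. With fold enrichment in place of −log10 p as the rank, Gas5 and Eef1a1 were the 2 regions above, and Ncl was not.

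**Figure D3:**
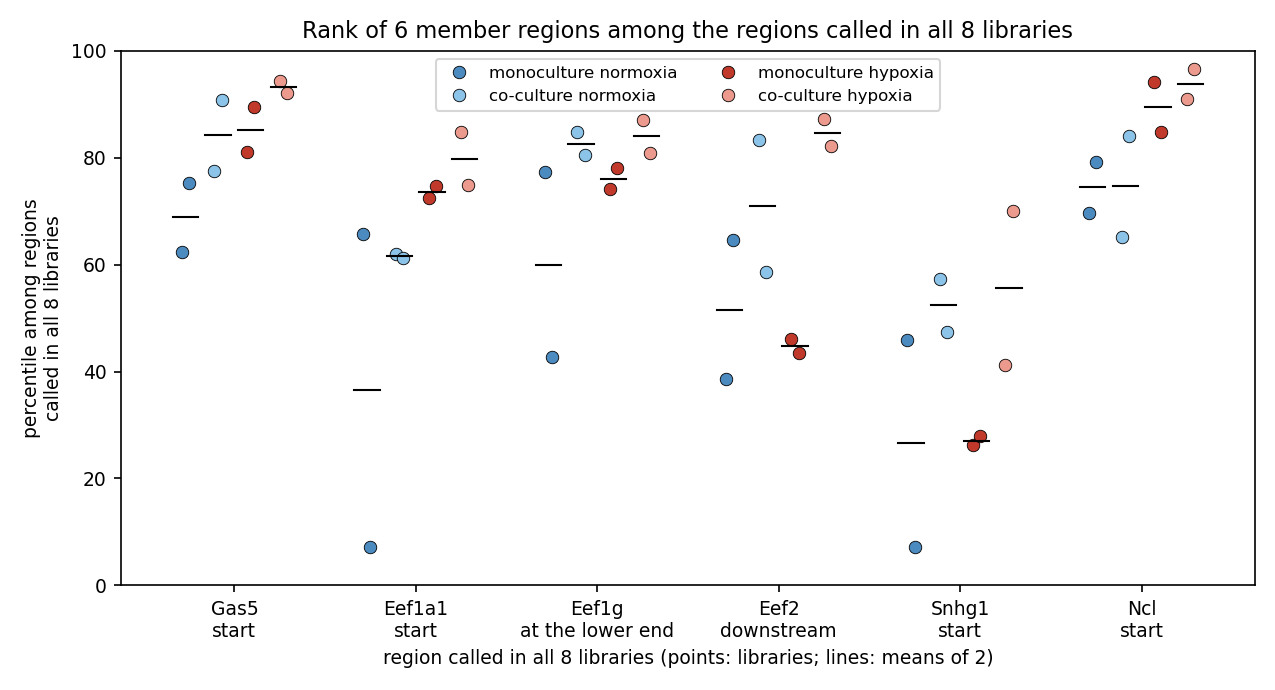
Common percentile (rank among the 6375 regions called in all 8 libraries, by −log10 p) of the 6 member regions called in all 8, with points for libraries and lines for the mean of 2 replicates. The hypoxic points (red) of the Eef1a1 and Ncl starts lie above all their normoxic points (blue), and the Gas5 start does so within each culture.

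The local background around each peak gave a further readout, which the choice of members did not use directly but which comes from the same peaks and libraries. It is the background that, with the deposited fold, gives back the deposited p, divided here by the commonest background of that library. At the Gas5 start it was 9.87 and 12.5 times the library's background in normoxic monoculture and 7.40 and 7.66 times in hypoxic monoculture. In co-culture it was 19.5 and 19.6 times in normoxia and 10.7 and 12.8 times in hypoxia. Gas5 thus had a raised local background in every library, and its hypoxic values were below its normoxic ones within each culture, though not across both. The median over all regions called in all 8 libraries was 3.14 to 4.19 times. The width of the window used for the local background is not given. Whether it takes in fragments of the lost downstream regions was not tested.

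The Snhg1 start was also below within each culture, at 4.55 and 3.55 against 2.96 and 3.37 in monoculture and at 6.95 and 5.83 against 3.67 and 5.16 in co-culture. The Eef1a1 start was below in co-culture, at 15.6 and 11.7 against 7.75 and 8.12, and overlapped in monoculture, at 6.30 and 7.44 against 6.42 and 6.42. The Ncl start ran the other way, at 3.75 and 3.55 against 4.89 and 5.14 in monoculture. Hypoxic values below normoxic ones within each culture were found at 2 of the 6 member regions and at 12.3% of 6320 regions. Over both cultures 0 of the 6 were wholly below and 0 wholly above, beside 7.91% and 5.51% of those regions.

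**Figure D4:**
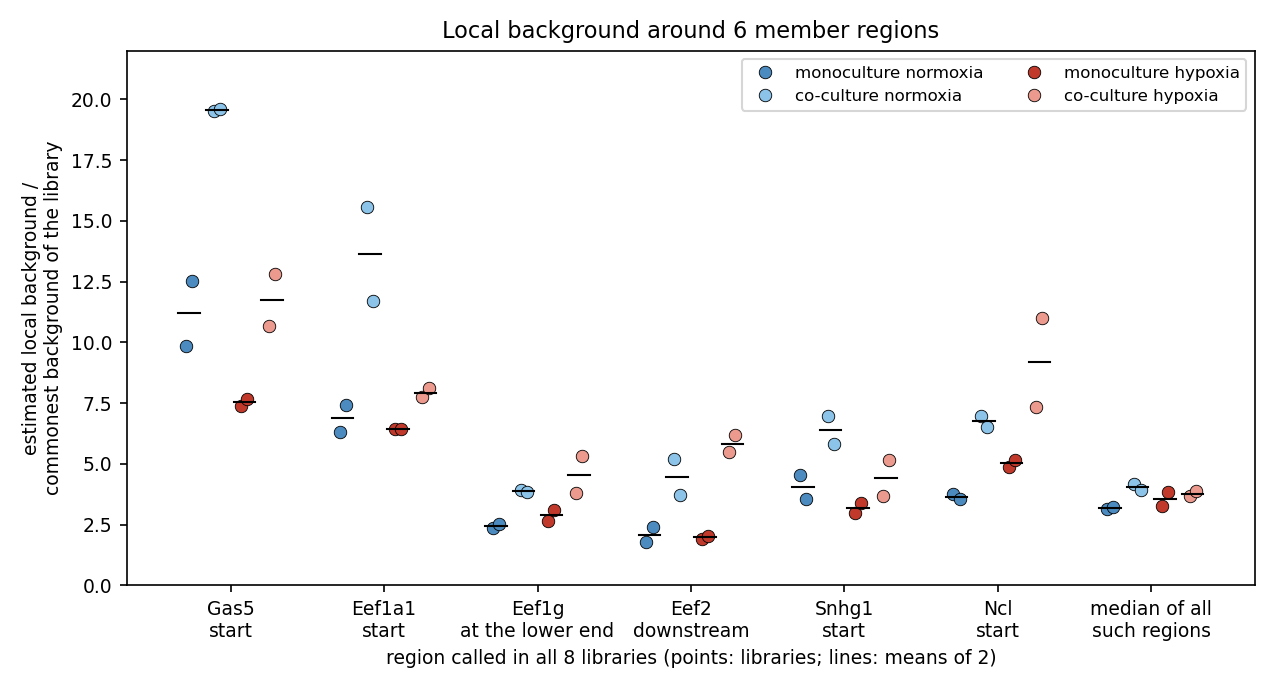
Estimated local background around the 6 member regions called in all 8 libraries, as a multiple of the commonest background of the library, with points for libraries and lines for the mean of 2 replicates. The Gas5 start has the highest background of the 6 in each library, from 7.40 to 19.6 times, against medians of 3.14 to 4.19 over all such regions.

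The remaining elongation factor regions were less uniform. The lower end of Eef1g stood at common percentiles of 77.3 and 42.6 in normoxic monoculture, 74.1 and 78.1 in hypoxic monoculture, 84.8 and 80.5 in normoxic co-culture and 87.1 and 80.9 in hypoxic co-culture. All 4 co-culture values lay above all 4 monoculture values, the 1 member region of 6 to do so, beside 5.62% of all 6375, and 0 of 6 lay below, beside 6.46%. With fold as the rank this no longer held. A further Eef1g region, 6147 to 6555 bp beyond its upper end, was the 1 member region called in all hypoxic and no normoxic libraries. It was low in the monoculture lists (percentiles 12.1 and 4.57) and in the middle of the co-culture lists (57.1 and 62.9). At a −log10 q of at least 5 it no longer met the rule. The Eef2 start was called in 2 hypoxic libraries, monoculture replicate 1 (percentile 17.5) and co-culture replicate 2 (29.0), and in no normoxic one.

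Some start regions appeared mainly in co-culture. The Snhg12 start was called in both hypoxic co-culture libraries, at percentiles 53.8 and 51.9, and in no other library. The Nop56 start was called in normoxic co-culture replicate 2 (percentile 51.9) and in both hypoxic co-cultures (79.0 and 78.1), and in no monoculture. The peak at the upper end of Npm1 was called in 6 of 8 libraries, missing from normoxic monoculture replicate 2 and normoxic co-culture replicate 1, at percentiles of 55.7 to 85.0. The Snhg1 start, shared with the amino acid transporter gene Slc3a2, was lowest in normoxic monoculture replicate 2 (common percentile 7.19) and highest in hypoxic co-culture replicate 2 (70.0).

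By culture, 0 of 10 members had a region in all 4 co-culture and no monoculture libraries, beside 4.24% of all genes, and 0 the reverse, beside 0.0308%. Within normoxia, co-culture had regions that monoculture lacked near 2 members, Eef2 (from −8927 to −8396 bp of its start, in Pias4) and Snhg1 (at the start of Wdr74), beside 26.1% of all genes, and 0 were lost, beside 0.281%. Within hypoxia the 2 gained were Snhg12 and Nop56, beside 12.9%, and 0 were lost, beside 6.7%. Hypoxia within monoculture gave 1 gained member (Eef1g, beside 29.7%) and 3 lost (Gas5, Eef1b2 and Eef1a1, beside 0.592%), and within co-culture 2 gained (Eef1g and Snhg12, beside 12%) and the same 3 lost (beside 4.26%). The common percentile was higher in co-culture by a median of 15.5 points over the 6 member regions, against 0.0549 over all 6375. Without normoxic monoculture replicate 2 the median over the 6 was 8.98 points, and the Eef1a1 start moved from 15.7 to −0.269. Other gene lists also had higher median ranks in co-culture. The difference was 19.3 points for 14 initiation factors, 14.3 for 6 elongation and termination factors and 13.2 for 6 snoRNP and nucleolar genes. It was 7.96 for 6 growth control genes, 6.65 for 6 other snoRNA host genes and 16.8 for 2 microglial markers. With each library left out in turn, all these medians stayed positive. Their lowest values were 11.8, 9.16, 6.91, 4.21, 5.25 and 13.9 points in that order. The elongation factors rose to at most 19.7, the snoRNP and nucleolar genes to 16.9 and the microglial markers to 20.7. The growth control genes also rose above 7.96 without some libraries. Glial markers had a peak within 1 kb of a gene end in the co-culture libraries alone, as given above, and their part in these values was not tested. Within 10 kb, 2 of those markers gained a region with co-culture in normoxia and 4 in hypoxia. Cdh2 was the 1 that gained a region in all 4 co-culture and no monoculture libraries. With co-culture in normoxia 1 marker lost a region. With hypoxia 1 gained a region in monoculture and 1 lost a region in co-culture.

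**Figure D5:**
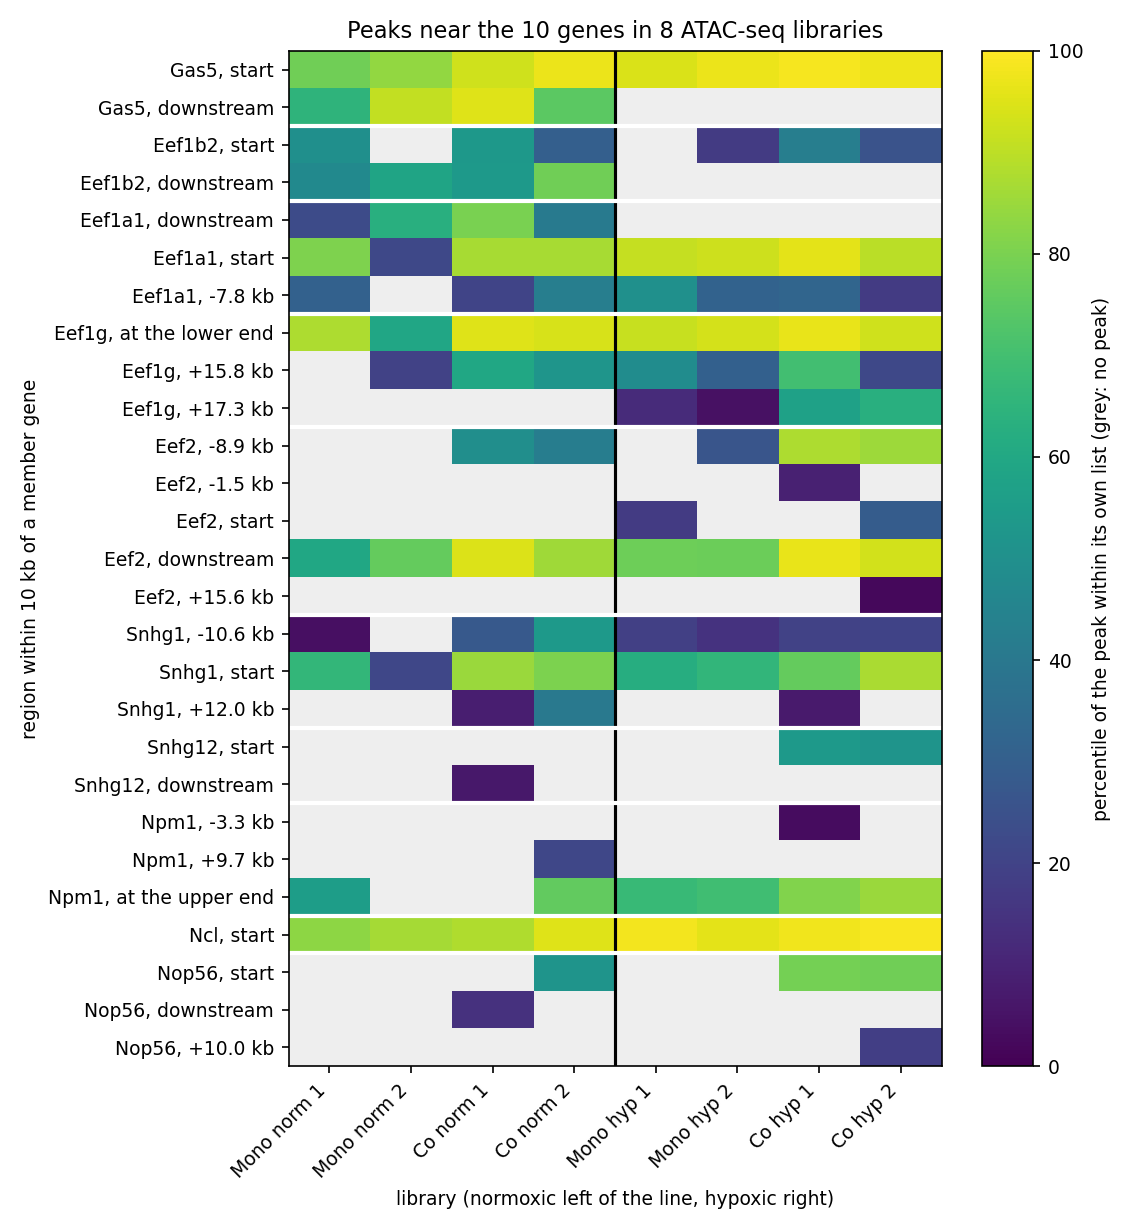
Within-list percentile of −log10 p (colour) for each of the 27 member regions (rows, named by gene and by place or distance from the gene start, or from the lower end for Eef1g and Npm1, whose strand is not in the table) in the 8 libraries (columns, normoxic left of the line), with grey for no peak. The Gas5, Eef1b2 and Eef1a1 downstream rows are filled in the 4 normoxic columns and grey in the 4 hypoxic ones.

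The wider pathway was described with 5 lists of 105 genes, of which 103 had a region within 10 kb. With hypoxia 3 of the 103 gained a region in all 4 libraries and 0 lost one, beside 3.87% and 0.104% of all genes. The 3 were Eif4g3, a translation initiation scaffold (percentiles 49.6 to 81.8), Eif5b, the subunit joining factor (17.7 to 69.2), and the host gene Snhg7 (10.2 to 47.4). With co-culture 5 gained a region and 0 lost one, beside 4.24% and 0.0308%. These were Eefsec, the selenocysteine elongation factor (13.1 to 34.3), Eif3b, an initiation factor subunit (19.4 to 41.6), and the nucleolar genes Polr1b (47.2 to 73.3), Ddx21 (0.191 to 45.4) and Pes1 (11.5 to 52.8). Among regulators of translation by growth signals, the best ranked region called in all 8 libraries was that of Mtor, at percentiles of 94.9 to 99.7. The end regions called in all 8 had a median hypoxic minus normoxic common percentile of 16.8 points for 6 snoRNP and nucleolar genes, 1.17 for 6 elongation and termination factors, −3.03 for 14 initiation factors, −1.35 for 6 other snoRNA host genes and 3.13 for 6 growth control genes. Without normoxic monoculture replicate 2 the first was 9.40. With each library left out in turn, the elongation factors ranged from −3.69 to 5.40, the initiation factors from −7.35 to 4.30 and the other host genes from −1.67 to 1.47, so no direction is given for them. The growth control genes ranged from 1.70 to 6.75.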

How the data were processed

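Per the submitters' processing notes, the tools named are Trimmomatic 0.36, HISAT2 2.1.0, Picard, SAMtools, deepTools and MACS2 2.1.1.2, with the build mm10; their settings are not given in the sources used here. Peaks were called separately in each library, since the authors deposited a list for each. Each list gives the authors' score, a fold enrichment (a ratio of summit to background), a −log10 p, a −log10 q and the summit offset.

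Peaks overlapping by at least 1 bp were merged into regions, and a library had a region when a peak lay in it. Gained and lost mean called in all libraries of the first group and none of the second. Genes, strands and promoters came from RefSeq GRCm38.p6; strand was known for 27025 of 49943 genes. Summit fragments and local background were solved from the deposited fold and p, assuming fold = (n + 1)/(b + 1) and a Poisson p. The members and lists were chosen with earlier results of these data known, so no test was run. Region counting was tested on simulated data. All 10 members were named, with list genes that had a gained or lost region, and otherwise the list gene of highest rank. Some named items are not reported here. Read totals were not used here; the number of fragments limits precision. Scripts ran in Python 3.11.15 with pandas 2.3.3, numpy 2.4.6 and scipy 1.17.1, and figures were drawn in matplotlib 3.10.9.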

Additional observations from a re-analysis of the deposited data

How the results depend on the processing

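Over 18 alternatives, 383 of 453 recomputed values stayed within 1.5 times of the reported count and 70 moved. The 3 members lost with hypoxia were the same with each library left out in turn. With lists of equal number, members gained with hypoxia fell to 0 and lost to 1 (Gas5), in monoculture 0 were gained, in co-culture 1 was lost, and in normoxia 0 were gained with co-culture. The Eef1a1 downstream region was then called in 2 normoxic libraries, 4 downstream regions were gained and 7 lost, and of the pathway genes 0 gained and 1 lost a region with hypoxia and 1 lost one with co-culture. Losses thus outnumbered gains there among downstream regions (38 gained and 4 lost as deposited) and pathway genes (3 and 0). At a −log10 q of at least 5, 0 members were gained with hypoxia. With peaks covering 50% of a region, 4 members were gained and 2 lost with hypoxia in monoculture, against 1 and 3 as deposited (4 and 3 without normoxic monoculture replicate 1), 1 region ranked above with hypoxia, and 8 pathway genes were gained with co-culture. Within 1 kb of the gene ends, members gained were 0 with hypoxia, 0 in monoculture, 1 in co-culture and 0 with co-culture in normoxia, and 1 pathway gene was gained with hypoxia. Over gene bodies, 0 members were gained and 0 lost with hypoxia, likewise in monoculture, 1 was gained and 0 lost in co-culture, and 0 were gained with co-culture in normoxia, since the lost regions lie outside the bodies. Ranked by fold, 0 regions stood above with co-culture. With a 2000 bp flank, 23 downstream regions were gained. With each library left out, members gained ranged from 0 to 1 with co-culture, 1 to 4 with hypoxia in monoculture, 2 to 4 in co-culture, 2 to 4 with co-culture in normoxia and 2 to 5 in hypoxia, and members lost with hypoxia in co-culture from 3 to 5. Regions ranked above with co-culture ranged from 1 to 2, downstream regions gained from 41 to 80, and pathway genes from 3 to 7 gained and 0 to 1 lost with hypoxia and 5 to 8 gained with co-culture. Where no construction is named, the cause was not tested. No paired analysis was possible because the values are counts and ranks reported without a test, as the same contrast chose the members. The flank alternatives, the snoRNA grouping, the Eef1a1 region, the counts without member regions and the rank differences with a library left out were added after seeing the data.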

Other observations

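With 1 normoxic library allowed to lack the peak, 9 of 1728 downstream regions (0.521%), 75 of all 40784 regions (0.184%) and 15 of 9477 regions at starts (0.158%) were called in at least 3 normoxic and no hypoxic library. The 9 include the member regions of Gas5, Eef1b2 and Eef1a1, and the rule named Gas5 and Eef1b2 for this loss. The reverse, at least 3 hypoxic and no normoxic library, held for 109 downstream regions (6.31%), 2509 of all regions (6.15%) and 227 regions at starts (2.40%). Besides Gas5, Eef1b2, Eef1a1 and Hnrnpf, the downstream ones lay past the ends of Rpsa, which encodes a protein of the small ribosomal subunit (percentiles 29.9 to 40.7), of Hnrnpa2b1, which encodes an RNA-binding protein, and of Nfe2l3 (1 shared region, 5.82 to 33.0), of the host gene Snhg8 (2.29 to 33.0), of Dennd5b (65.4 to 83.9), and of Pank4 and Plch2 (1 shared region, 4.49 to 31.3). These genes were named after their values were seen.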
